A study of Mus musculus with 483 samples.

Results

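The genes described here are Cxcl12, which encodes a secreted chemokine, and its receptors Cxcr4 and Ackr3. They were chosen by name, as 3 of the 46078 genes in the deposited table, and all 3 were measured, meaning that a read was found in at least 5% of cells, as for 15204 genes in all. The study sequenced single mouse cells from the aorta-gonad-mesonephros region, where the first hematopoietic stem cells arise from hemogenic endothelium. The sort kept cells with surface CD31, an endothelial protein, and Kit, a receptor of early blood progenitors, but without the leukocyte protein CD45, and the cells were sequenced with the full-length Smart-seq2 method. Cells labelled aDll4-treated numbered 86, 72, 36, 12, 7, 19 and 12 in the submitters' clusters 1 to 7, against 97, 73, 31, 10, 6, 14 and 8 cells labelled Ctrl. The labels do not explain aDll4, and give no genotype, strain, embryo age, culture or embryo of origin for either group, so each treatment counted as 1 sample, cells were not treated as replicates and no p-value is given.

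CXCL12 binds the G protein-coupled receptor CXCR4, which directs migration and retention of hematopoietic stem and progenitor cells and takes part in the patterning of arteries. ACKR3, also called CXCR7, binds the same chemokine but signals mainly through arrestins and removes it from the surroundings, so that cells carrying it lower the local ligand level. In blood-forming tissues CXCL12 is best known as a product of stromal and endothelial cells, while CXCR4 is carried by the cells that respond to it.

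Cxcl12 (ENSMUSG00000061353) lies on the plus strand at chr6:117168535-117181367 of mm10, Cxcr4 (ENSMUSG00000045382) on the minus strand at chr1:128588199-128592293, and Ackr3 (ENSMUSG00000044337) on the plus strand at chr1:90203980-90216751. No annotated gene overlapped any of them, the number of overlapping genes being 0 for each. The promoters are shown because the treatment name points to a Notch ligand, and Notch acts on DNA through RBPJ. The 250 bases before each RefSeq start (GRCm38.p6, the same sequence as mm10) are printed 5′ to 3′ on the gene's strand, with capitals on every match, on either strand, to TATAAA (the TATA box) and to TGGGAA (the RBPJ core).
Cxcl12 (chr6:117168285-117168534, plus strand): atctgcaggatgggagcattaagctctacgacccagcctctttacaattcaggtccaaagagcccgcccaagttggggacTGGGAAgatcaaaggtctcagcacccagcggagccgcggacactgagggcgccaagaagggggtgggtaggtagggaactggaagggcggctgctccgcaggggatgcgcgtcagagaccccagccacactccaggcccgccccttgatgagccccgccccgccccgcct
Cxcr4 (chr1:128592300-128592549, minus strand): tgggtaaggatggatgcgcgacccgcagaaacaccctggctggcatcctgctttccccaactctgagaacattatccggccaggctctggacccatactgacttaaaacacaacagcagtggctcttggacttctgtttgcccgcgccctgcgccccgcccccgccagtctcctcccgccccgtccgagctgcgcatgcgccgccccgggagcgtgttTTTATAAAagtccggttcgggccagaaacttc
Ackr3 (chr1:90203730-90203979, plus strand): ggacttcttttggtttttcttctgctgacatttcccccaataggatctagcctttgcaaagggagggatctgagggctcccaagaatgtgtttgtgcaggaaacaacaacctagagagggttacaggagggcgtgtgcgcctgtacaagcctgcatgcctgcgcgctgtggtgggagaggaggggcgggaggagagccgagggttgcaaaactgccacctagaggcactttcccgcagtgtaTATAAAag
The letters TATAAA occurred in the Cxcr4 window, as 2 overlapping matches on opposite strands beginning 32 bases before the start, and in the Ackr3 window 8 bases before it, but not in that of Cxcl12. TGGGAA occurred only in the Cxcl12 window, 170 bases before the start. Of 32851 mouse promoter windows of this length, 12.4% held TATAAA and 21.6% held TGGGAA, so either match is common. All 3 windows held the GC box core GGCGGG on some strand (5, 3 and 1 matches in Cxcl12, Cxcr4 and Ackr3), as did 32.5% of windows, and ACGTG, the core of the hypoxia response element, was in none of the 3 and in 16.6% of windows.

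The submitters assigned every cell to 1 of 7 clusters by the ICGS method, and the clusters are called here by number. Clusters 1 to 3, with 395 cells, were endothelial by their markers: Pecam1, which encodes CD31, was at 1135, 852 and 580 CPM (reads per 1000000 gene-assigned reads), against at most 79.1 CPM in any other cluster. Clusters 4 and 5, with 35 cells, differed from these and from each other. Both held little Pecam1 RNA (10.5 and 6.82 CPM), although the sort kept cells with surface CD31 protein. Both also held much of the fibroblast receptor gene Pdgfra (197.4 and 127.5 CPM). The collagen gene Col1a1 was at 204.2 and 2217 CPM. Acta2, the smooth muscle actin gene, was at 4639 CPM in cluster 5 but at 6.01 CPM in cluster 4, and the matrix gene Lum at 1349 CPM in cluster 5 but at 4.69 CPM in cluster 4. Cluster 4 had the highest level of the epithelial gene Epcam, 53.1 CPM, with reads in 22.7% of its cells. Both are therefore called by number only. Clusters 6 and 7, with 53 cells, carried the hematopoietic GTPase gene Rac2 at 475 and 278 CPM. Ptprc, which encodes CD45, was at or below 0.889 CPM in every cluster. The sort was by surface protein, whereas these values are RNA. All levels are reads summed over the cells of a group and divided by their summed total, and all intervals are 95% intervals that cover counting error only.

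The ligand was highest in clusters 4 and 5. Cxcl12 was at 175.5 CPM in cluster 5 (168.9 to 182.2) and 101.2 CPM in cluster 4 (96.9 to 105.7), and a read of it was found in 9 of 13 and in 14 of 22 cells. In clusters 1 and 2 it was at 13.04 and 12.2 CPM, with reads in 18.6% and 20.7% of cells and overlapping intervals. It was at 5.42 CPM in cluster 7, where 1 of 20 cells had 10 reads or more. It was at 0.67 CPM in cluster 3 and 0.0594 CPM in cluster 6, where the only reads were 1 read in each of 2 of the 33 cells. The order was therefore cluster 5, 4, 1 and 2, 7, 3 and 6. Although clusters 4 and 5 held 7.25% of the cells, they held 7 of the 10 cells with the most Cxcl12.

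Cxcr4 was highest in clusters 1 and 2 and low in clusters 4 and 5, while cluster 6 was lowest in both genes. It was at 7.11 CPM in cluster 1 (6.72 to 7.51) and 6.11 CPM in cluster 2 (5.69 to 6.56), with reads in 26.2% and 18.6% of cells. Cluster 3 followed at 1.86 CPM, with reads in 5 of 67 cells. Clusters 5, 7 and 4 had 0.910, 0.440 and 0.391 CPM, and their intervals overlapped. In cluster 6 no read was found in any of the 33 cells, and a count of 0 allows a share of up to 9.09%. The endothelial clusters held 80 of the 88 cells with a read and 81.8% of all cells. By share of cells, 3 of 22, 2 of 13 and 3 of 20 cells of clusters 4, 5 and 7 had a read, against 5 of 67 in cluster 3, and 1 of these 8 cells had 10 reads or more.

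Ackr3 was more even. Clusters 1, 2, 3 and 4 had 34.8, 33.4, 34.05 and 32.2 CPM with overlapping intervals, and reads in 34.4%, 33.1%, 29.9% and 31.8% of cells. In clusters 3 and 4 the level rested on few cells. In cluster 3, 1 cell held 81.2% of treated reads and 1 cell 42.2% of Ctrl reads, and in cluster 4, 51.4% and 100%. At 10 reads, 5.56% of treated and 12.9% of Ctrl cells of cluster 3 had Ackr3. In cluster 1 these shares were 15.1% and 26.8%. Cluster 5 stood above clusters 1 to 4 at 129.2 CPM (123.6 to 135.004), with reads in 9 of 13 cells. Cluster 7 had 3.96 CPM, nearly all from 1 cell, and cluster 6 had 0.119 CPM, as 1 read in each of 4 cells. Per kilobase of annotated exon, over all cells, Ackr3 was the most abundant at 9.98 CPM, followed by Cxcr4 at 2.68 and Cxcl12 at 2.42 CPM per kilobase. The plot of single cells by cluster shows these patterns beside the many cells without a read.

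**Figure D1:**
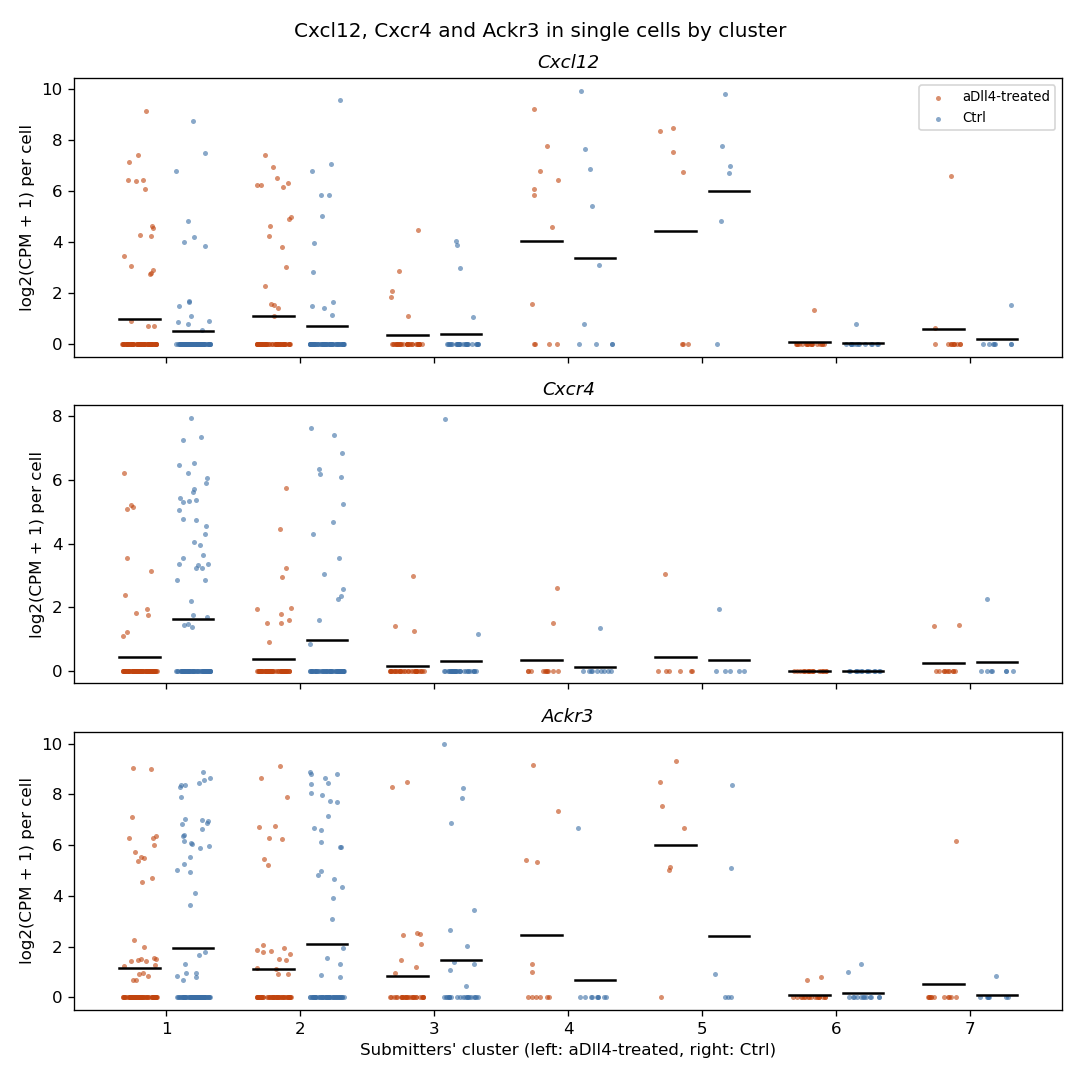
Level of each gene in every cell, as log2(CPM + 1), by submitters' cluster, with aDll4-treated cells to the left (orange) and Ctrl cells to the right (blue) of each number; each point is a cell and black lines are means over cells. Cxcl12 is densest in clusters 4 and 5, Cxcr4 in the Ctrl cells of clusters 1 and 2, and Ackr3 is found in clusters 1 to 5.

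Each transcript came from few cells. A read was found in 57 treated and 44 Ctrl cells for Cxcl12, in 31 and 57 for Cxcr4 and in 73 and 80 for Ackr3. Of these, 27, 15 and 50 had a single read, while 58, 41 and 89 had 10 reads or more. Single-read cells held 0.308%, 0.699% and 0.338% of the reads of Cxcl12, Cxcr4 and Ackr3, so they weigh in the shares of cells but hardly in the levels. In cells with a read, the lowest, median and highest levels were 0.460, 20.9 and 965 CPM for Cxcl12. They were 0.793, 8.73 and 247 CPM for Cxcr4, and 0.348, 34.1 and 1002 CPM for Ackr3.

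When each cell's CPM was summed, 7 cells made up 50% of all Cxcl12, 9 cells 50% of Cxcr4 and 18 cells 50% of Ackr3. The 10 highest cells held 58.4% of Cxcl12, 54.1% of Cxcr4 and 33.8% of Ackr3. For Cxcl12 these 10 were 5 treated and 5 Ctrl cells, and for Ackr3 likewise 5 and 5. For Cxcr4 they were 0 treated and 10 Ctrl cells, all from clusters 1 to 3 (5, 4 and 1 cells). Of the 10 highest Cxcr4 cells, 5 were positive for the female transcript Xist and 4 for Y-linked genes, at 10 reads or more. The concentration plot shows how quickly each sum fills up.

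**Figure D2:**
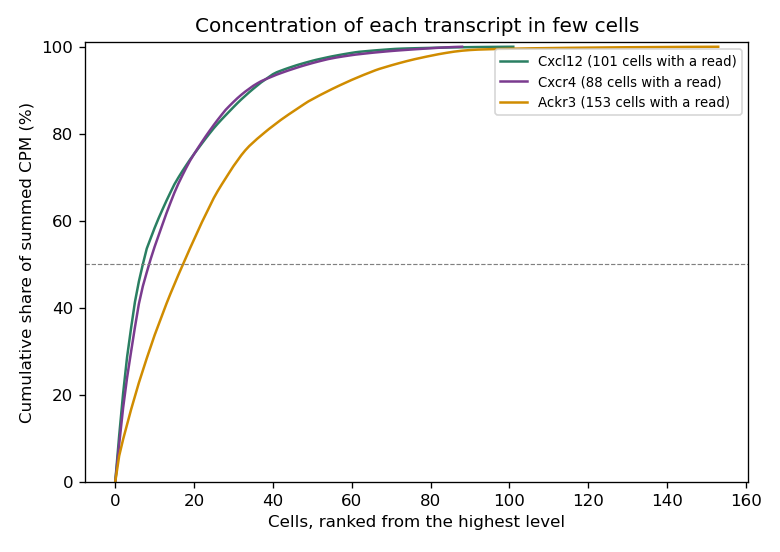
Cumulative share of the summed CPM of each gene (vertical axis, percent) over cells ranked from the highest (horizontal axis), for Cxcl12, Cxcr4 and Ackr3; the dashed line marks 50%. The curves of Cxcl12 and Cxcr4 pass it after 7 and 9 cells and that of Ackr3 after 18.

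Between treatments, Cxcr4 had the largest difference of the 3 genes. It was at 1.62 CPM in treated cells (1.46 to 1.80) and 8.001 CPM in Ctrl cells (7.64 to 8.38), a log2 ratio of -1.78 with 1 CPM added to each level. A read was found in 31 treated cells (12.7%) and 57 Ctrl cells (23.8%), a difference of -11.1 points (-18.0 to -4.27, Newcombe interval). With 10 reads or more required, 9 treated and 32 Ctrl cells remained. Of the 15204 measured genes, 0.888% were at least 2-fold lower in treated cells and 1.16% at least 2-fold higher, on the log2(CPM + 1) scale used for all such counts. Of the 3 axis genes, Cxcr4 was past 2-fold lower and 0 were past 2-fold higher. Ackr3 was at 27.4 CPM in treated and 39.3 CPM in Ctrl cells (log2 ratio -0.50), with reads in 29.9% and 33.5% of cells, a difference of -3.55 points whose interval included 0 (-11.8 to 4.72). Cxcl12 was at 19.8 CPM in treated and 19.7 CPM in Ctrl cells (log2 ratio 0.01), with reads in 23.4% and 18.4% of cells, a difference of 4.95 points (-2.32 to 12.1).

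Each cell carries a library number, either below 20000 (called block 1) or above 22000 (block 2). The numbers were cut into 6 runs of 96, runs 1 to 4 in block 1 and runs 5 and 6 in block 2, with 46, 46, 39, 47, 30 and 36 treated cells and 46, 46, 44, 40, 37 and 26 Ctrl cells. No label says what a block or a run was. For Cxcr4 the difference was large in block 1 and was not found in block 2. In block 1 it was at 1.35 CPM in treated and 11.1 CPM in Ctrl cells (log2 ratio -2.37), with reads in 12.4% and 28.4% of cells, a difference of -16.0 points (-24.2 to -7.70). In block 2 it was at 2.15 CPM in treated and 0.919 CPM in Ctrl cells (log2 ratio 0.72), with reads in 9 of 66 and 7 of 63 cells, a difference of 2.53 points (-9.37 to 14.3). Of the block 2 treated reads, 50% came from 1 cell of cluster 1, and without it the treated level was 1.09 CPM and the log2 ratio 0.12. Leaving out the highest cell of each treatment gave 0.43 in block 2 and -2.53 in block 1. In block 1, 1.55% of measured genes were at least 2-fold lower and 1.64% at least 2-fold higher. In block 2 these shares were 5.42% and 5.87%. Genes at least 2-fold lower in block 1 and on the other side in block 2 made up 0.816%, and those at least 2-fold higher in block 1 and on the other side in block 2 made up 0.763%. Cxcr4 and Ackr3 are both among the lower-then-higher genes, and Cxcl12 is in neither set. The Ctrl cells of block 1 stood apart, at 11.1 CPM, from the other 3 combinations, which lay between 0.919 and 2.15 CPM.

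Run by run, Cxcr4 was at 0.146, 2.18, 3.72 and 0.0919 CPM in the treated cells of runs 1 to 4, and at 3.62 and 0.590 CPM in those of runs 5 and 6. In Ctrl cells it was at 17.15, 5.95, 5.89 and 18.4 CPM in runs 1 to 4, and at 1.10 and 0.457 CPM in runs 5 and 6. In block 1 the highest treated run lay below the lowest Ctrl run, a separation that 1.99% of measured genes shared, while 2.57% had every treated run of that block above every Ctrl run. Treated cells were lower in all 4 runs of block 1 and higher in both runs of block 2, and 1.84% of measured genes shared that pattern. In run 6 the levels were nearly equal, a read was found in 3 of 36 treated and 3 of 26 Ctrl cells, and the log2 ratio of 0.13 became -0.17 without the highest treated cell. The share of cells with a read was lower in treated cells in 5 of 6 runs, run 5 being the other. Run 3 had the smallest gap of block 1, with a log2 ratio of -0.55, and run 4 the largest, with -4.15.

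Single cells show the same gap in another way. Among cells of block 1 with 10 reads or more, the 5 treated cells had a lowest, median and highest level of 8.39, 34.1 and 52.9 CPM. The 30 Ctrl cells had 15.6, 55.1 and 247 CPM. Only 1 treated cell of block 1 passed 50 CPM, against 16 Ctrl cells. The levels of cells with 10 reads or more overlapped, and 5 treated cells reached that limit against 30 Ctrl cells. The limit leaves out cells with fewer reads. Among all cells of block 1 with a read, the median was 2.67 CPM in 22 treated cells and 24.999 CPM in 50 Ctrl cells. Both the number of cells with a read and their median level were therefore lower in treated cells of block 1.

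Ackr3 also changed direction between the blocks. It was at 21.5 CPM in treated and 47.01 CPM in Ctrl cells of block 1 (log2 ratio -1.09), and at 39.1 CPM in treated and 21.7 CPM in Ctrl cells of block 2 (0.82). In treated cells of runs 1 to 6 it was at 12.5, 3.40, 40.7, 34.3, 20.1 and 59.3 CPM. In Ctrl cells of the same runs it was at 46.5, 42.1, 29.6, 73.2, 24.03 and 16.003 CPM. The ranges overlapped in both blocks, and treated cells were lower in 3 of 4 runs of block 1 and in 1 of 2 runs of block 2. The share of cells with 10 reads or more was 8.25 points lower in treated cells over all cells (-15.1 to -1.32).

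The summed level of Cxcl12 showed no steady direction. In block 1 it was at 17.2 CPM in treated and 18.4 CPM in Ctrl cells, and in block 2 at 24.98 CPM in treated and 22.7 CPM in Ctrl cells. Over runs 1 to 6 it was at 14.35, 21.2, 6.86, 21.9, 17.9 and 32.6 CPM in treated cells and at 28.5, 7.03, 38.4, 2.04, 28.1 and 9.50 CPM in Ctrl cells. Treated cells were lower in runs 1, 3 and 5 and higher in runs 2, 4 and 6. Single cells weighed heavily here. In runs 1, 3, 4 and 6, 1 cell held 65.4%, 73.2%, 97.3% and 73.3% of the Ctrl reads. In runs 2 and 4, 1 cell held 62.2% and 62.7% of the treated reads. The share of cells with a read was lower in treated cells in 1 of 6 runs, run 3. At 10 reads, the share was 2.70 points higher in treated cells of block 1 (-3.94 to 9.36). In block 2 it was 13.3 points higher (0.895 to 25.4). Over runs 1 to 6 the summed mesenchyme list lay between 31.5 and 1365 CPM in treated cells. In Ctrl cells it lay between 10.5 and 1692 CPM. Of its 10 measured genes, 5 were lower and 5 higher in treated cells. At least 2-fold lower were 0 and at least 2-fold higher 3, beside 0.888% and 1.16% of all measured genes. The median log2 ratio of the list was -0.67 in block 1 and 1.39 in block 2. The part of the list in the Cxcl12 values was not tested.

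**Figure D3:**
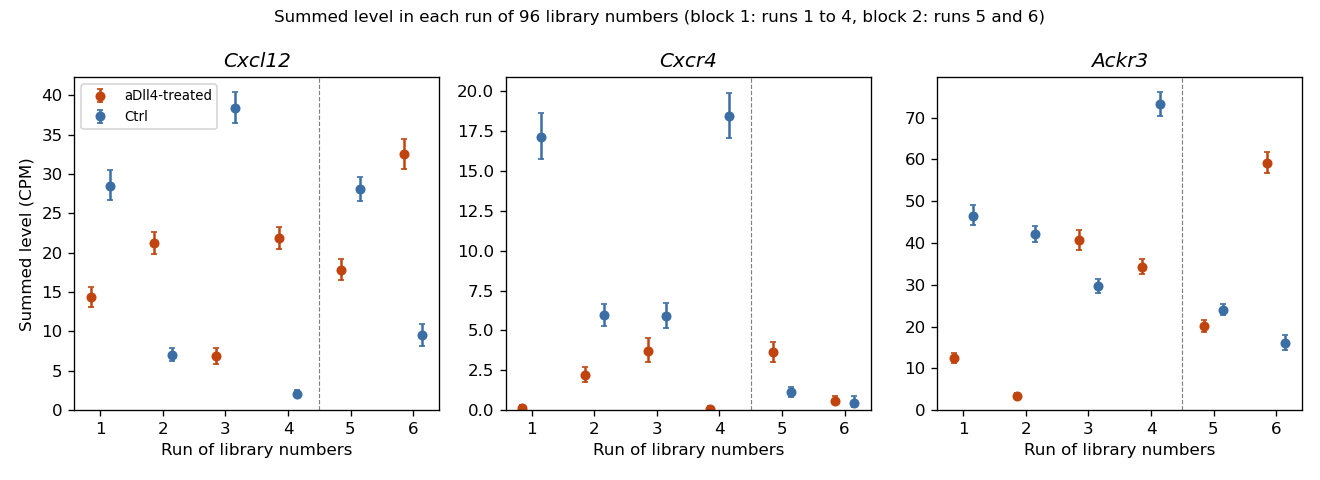
Summed level of each gene (CPM, linear axis from 0) in each run of 96 library numbers, with aDll4-treated cells left (orange) and Ctrl cells right (blue) of each run number; whiskers are exact Poisson 95% intervals and the dashed line parts block 1 from block 2. Cxcr4 in Ctrl cells is between 5.89 and 18.4 CPM in runs 1 to 4 and at most 1.10 CPM in runs 5 and 6.

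The treatments also differed in sex in each block. In block 1, treated cells were all Y-positive but for 19 that were neither, against 77 Y-positive, 85 Xist-positive and 14 Ctrl cells of neither kind. In block 2, 61 treated cells were Xist-positive, 0 were Y-positive and 5 were neither, against 25, 29 and 9 Ctrl cells. Among Y-positive cells of block 1, Cxcr4 was at 1.34 CPM in treated and 9.63 CPM in Ctrl cells (log2 ratio -2.18), so the difference was nearly as large within that sex. Ackr3 was there at 23.3 CPM in treated and 26.7 CPM in Ctrl cells (-0.19), much closer than in the whole block. Ctrl cells of block 1 had 65.7 CPM of Ackr3 when Xist-positive and 26.7 CPM when Y-positive. Among Xist-positive cells of block 2 the log2 ratios were 0.55 for Cxcr4, 0.43 for Ackr3 and -0.76 for Cxcl12. The labels name no embryo, so sex and embryo of origin cannot be told apart.

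Summed over both blocks, the Cxcr4 level was lower in treated cells of each endothelial cluster. In cluster 1 it was at 2.52 CPM in treated and 10.99 CPM in Ctrl cells, with reads in 13.95% and 37.1% of cells, a difference of -23.2 points (-34.7 to -10.6). In cluster 2 it was at 2.06 CPM in treated and 9.91 CPM in Ctrl cells, with reads in 15.3% and 21.9% of cells, an interval that included 0 (-19.2 to 6.17 points). In cluster 3 it was at 0.168 CPM in treated and 3.36 CPM in Ctrl cells, where 1 Ctrl cell held 89 of 90 reads and a read was found in 3 of 36 treated and 2 of 31 Ctrl cells. Over clusters 1 to 3 the log2 ratio was -1.80, and 1.55% of measured genes were at least 2-fold lower there and 1.17% at least 2-fold higher. In block 2 alone, Cxcr4 was at 5.42 CPM in treated and 1.94 CPM in Ctrl cells of cluster 1, with reads in 2 of 13 and 2 of 16 cells, and at 2.17 CPM in treated and 0.657 CPM in Ctrl cells of cluster 2. Over clusters 1 to 3 of block 2 it was at 2.69 CPM in treated and 1.05 CPM in Ctrl cells, and at 1.17 CPM in treated cells without the highest of them, so the pooled difference came from block 1. Over both blocks, the share of cells of clusters 1 to 3 with a read differed by -13.5 points (-21.2 to -5.57).

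A list of arterial endothelial genes, which holds Dll4, Hey1 and Efnb2, was also lower in treated cells. Its summed level over all cells was 1082 CPM in treated and 1621 CPM in Ctrl cells, with 10 of its 11 measured genes lower and 5 of them at least 2-fold lower. Of all measured genes, 0.888% were at least 2-fold lower. Over runs the summed level lay between 794 and 1328 CPM in treated cells and between 1121 and 2037 CPM in Ctrl cells. The Ctrl cells of runs 1 and 4, the highest in Cxcr4, were also the highest in the arterial list, at 1942 and 2037 CPM. Run 3, where the Cxcr4 gap of block 1 was smallest, was the only run in which the list was higher in treated cells, at 1193 CPM against 1121 CPM in Ctrl cells. In runs 5 and 6 the list was at 1328 and 1010 CPM in treated cells and at 1518 and 1352 CPM in Ctrl cells. Those Ctrl levels lay above that of run 3, but Cxcr4 was at 1.10 and 0.457 CPM there, against 5.89 CPM in run 3. The Cxcr4 level was not lower in treated cells of runs 5 and 6. The summed pan-endothelial list was closer, at 6006 CPM in treated and 7084 CPM in Ctrl cells, with 11 of its 12 genes lower and 0 past 2-fold. A list of endothelial tip cell genes, which holds Esm1 and shares Dll4 and Unc5b with the arterial list, was at 869 CPM in treated and 1090 CPM in Ctrl cells. Of its 9 genes, 5 were lower, 4 of them at least 2-fold, and 4 were higher. Over runs 1 to 6 it was at 826, 1146, 853, 1204, 627 and 450 CPM in treated cells. In Ctrl cells it was at 1219, 1195, 965, 1719, 766 and 534 CPM. The part of these lists in the Cxcr4 result was not tested.

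Summed over both blocks, Ackr3 was lower in treated cells of clusters 1 to 3 and higher in those of clusters 4 and 5, but neither held in every block. Over clusters 1 to 3 it was at 22.6 CPM in treated and 44.5 CPM in Ctrl cells (log2 ratio -0.95), with reads in 29.9% and 36.3% of cells. In block 2 these clusters had 34.1 CPM in treated and 27.98 CPM in Ctrl cells, and without the highest treated cell 21.4 CPM in treated cells. Over clusters 4 and 5 it was at 108.6 CPM in treated and 29.9 CPM in Ctrl cells (1.83), with reads in 12 of 19 and 4 of 16 cells, a difference of 38.2 points (5.15 to 61.2). In cluster 4, treated cells of block 2 had 80.04 CPM and reads in 4 of 6 cells, and the 7 Ctrl cells there had no read, while in block 1 the 6 treated cells had 0.404 CPM and the 3 Ctrl cells 45.2 CPM, from 1 cell. In cluster 5, the 4 treated cells of block 1 had a summed level of 219.4 CPM, against 50.7 CPM in 6 Ctrl cells, and block 2 held no Ctrl cell. Cxcl12 over clusters 1 to 3 was at 11.9 CPM in treated and 10.1 CPM in Ctrl cells (0.22), with reads in 21.6% and 15.4% of cells. At 10 reads these shares were 12.4% and 6.47%. The log2 ratio there was 0.54 in block 1 and -0.40 in block 2, where 1 cell held 55.1% and 92.5% of the Ctrl reads. Without the highest cell of each treatment it was 0.87 in block 1 and 2.06 in block 2. Over clusters 4 and 5, Cxcl12 was at 112.5 CPM in treated and 159.1 CPM in Ctrl cells.

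The receptors were found together more often than either with the ligand. A read of Ackr3 was present in 45 of 88 Cxcr4 cells, 51.1% (40.2 to 61.9), and in 27.3% of cells without Cxcr4 (23.004 to 32.02). The 45 cells made up 29.4% of Ackr3 cells. With 10 reads or more of each gene, 25 of 41 Cxcr4 cells had Ackr3, 60.98%, against 14.5% of the rest, and those 25 were 28.1% of Ackr3 cells. After thinning every cell to 120000 reads, 31 of 59 Cxcr4 cells had Ackr3, 52.5%, against 16.7%. Cells with both receptors had a median total of 1050760 reads, against 850873 reads in all Cxcr4 cells and 890778 reads in cells without Cxcr4.

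Over both blocks at 1 read, either receptor was found about as often in cells with the ligand as in cells without it. Cxcr4 was read in 18 Cxcl12 cells, 17.8% of them (10.9 to 26.7), and in 18.3% of cells without Cxcl12. Those 18 were 20.5% of Cxcr4 cells. Ackr3 was read in 36 Cxcl12 cells, 35.6% of them (26.4 to 45.8), and in 30.6% of cells without Cxcl12, and those 36 were 23.5% of Ackr3 cells. At 10 reads the values moved apart, to 17.2% of Cxcl12 cells against 7.29% of the rest for Cxcr4 and to 36.2% against 16% for Ackr3, with 10 and 21 cells in both. In clusters 1 to 3 alone, at 1 read, the shares were 20.5% against 20.2% for Cxcr4 and 32.9% against 33.2% for Ackr3. For Ackr3 the blocks differed. In block 1 it was read in 30.2% of Cxcl12 cells, beside 29.2% of all treated and 37.5% of all Ctrl cells. In block 2 it was read in 44.7% of Cxcl12 cells, beside 31.8% of all treated and 22.2% of all Ctrl cells.

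Counted by state, 59 cells (12.2%) had a read of the ligand only, 31.9% of a receptor only, 42 cells (8.70%) of ligand and receptor, and 47.2% of none of the 3 genes. Reads of all 3 genes were found in 12 cells. By treatment, 35 treated and 24 Ctrl cells had the ligand only, 69 treated and 85 Ctrl cells a receptor only, and 22 treated and 20 Ctrl cells both. Cells with both receptors numbered 13 among treated and 32 among Ctrl cells. In clusters 1 to 3, Ackr3 was present in 11 of 26 treated Cxcr4 cells, 42.3%, and in 31 of 54 Ctrl Cxcr4 cells, 57.4%, with overlapping intervals (23.4 to 63.1 and 43.2 to 70.8).

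**Figure D4:**
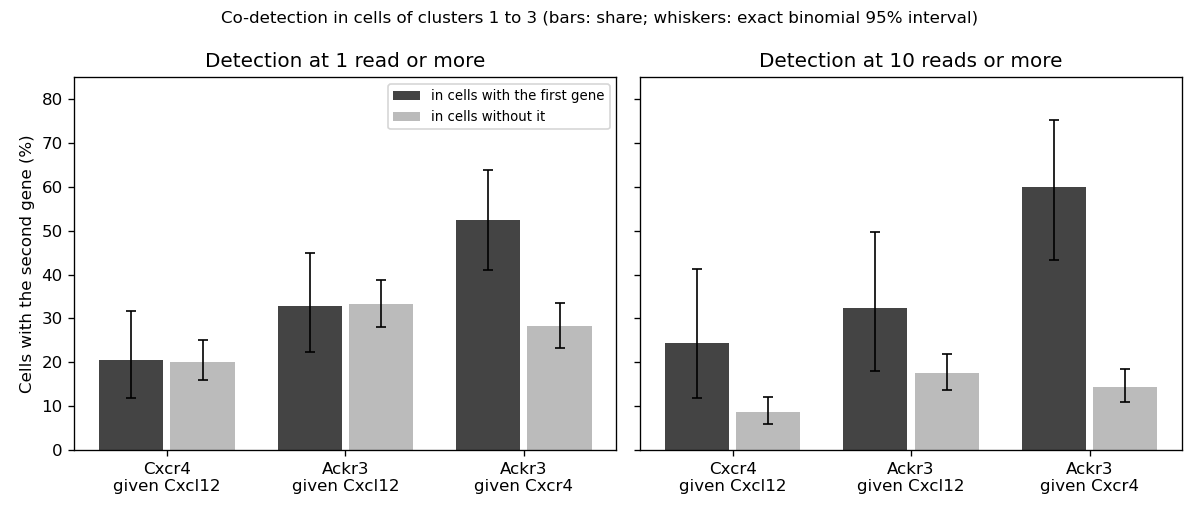
Share of cells of clusters 1 to 3 with a read of the second-named gene, in cells with the first-named gene (dark bars) and in cells without it (light bars), at 1 read (left) and 10 reads (right); whiskers are exact binomial 95% intervals. Ackr3 is found in 52.5% of Cxcr4 cells and 28.3% of the others at 1 read, and the whiskers of these bars do not overlap.

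The genes whose level followed each member most closely over all cells were ranked by Pearson correlation of log2(CPM + 1), as a description over cells that share libraries, depth and treatment. For Cxcr4 they were Esm1 (r = 0.52), a marker of endothelial tip cells, Gja4 (0.44), an arterial gap junction gene, the netrin receptor gene Unc5b (0.43), the Notch target Hey1 (0.40), Igfbp3 (0.35) and Ackr3 (0.34). Within clusters 1 to 3 the values were close to these, from 0.51 for Esm1 to 0.35 for Igfbp3. For Ackr3 the gene ranked first of 10506 was Cxcr4, followed by the arterial ephrin gene Efnb2 (0.31), Arhgef26 (0.31), Esm1 (0.30), Gja4 (0.29) and Slc45a4 (0.28). The receptors correlated in both blocks, with r = 0.36 in block 1 and 0.30 in block 2.

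The genes near Cxcr4 were lower in treated cells as well, but did not all turn round in block 2. Esm1 had log2 ratios of -1.68 in block 1 and 0.12 in block 2, and Hey1 of -2.03 and 0.86. Gja4 had -1.16 and -1.07, Unc5b -1.10 and -0.59, and Igfbp3 -0.62 and -0.87. Unc5b was lower in treated cells in all 6 runs and Gja4 in 5 of them. These genes were chosen for their correlation with Cxcr4 over cells of both treatments, so their direction is a description.

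For Cxcl12 the nearest genes were Crispld2 (r = 0.48), the transcriptional corepressor gene Runx1t1 (0.40), the matrix proteoglycan gene Vcan (0.39), Ptn (0.38), the collagen gene Col3a1 (0.37) and Mfap4 (0.37). Within clusters 1 to 3 these values were between -0.05 and 0.14, so the likeness was weak or absent within the endothelial clusters. No value was taken within the other clusters. Cxcl12 itself had r = 0.05 with Cxcr4 and 0.15 with Ackr3. With Ackr3 it had 0.04 in block 1 and 0.44 in block 2.

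Of the 75 measured genes in 6 other chemokine lists, 0 were at least 2-fold lower and 3 at least 2-fold higher in treated cells. Over all measured genes these shares were 0.888% and 1.16%, so a count of 0 in any of these lists says little. Among 8 measured ligands and ligand-modifying enzymes, 0 were at least 2-fold lower or higher. Adm, the gene of adrenomedullin, a ligand that ACKR3 also binds, was at 153.4 CPM in treated and 120.5 CPM in Ctrl cells (log2 ratio 0.35), higher in 5 of 6 runs. Calcrl, which encodes the signalling receptor of adrenomedullin, was at 77.1 CPM in treated and 103.5 CPM in Ctrl cells (-0.42). Mif, a further CXCR4 ligand, was at 269 CPM in treated and 240 CPM in Ctrl cells (0.16). The matrix proteases Mmp2 and Mmp14, which can cleave CXCL12, had log2 ratios of -0.19 and -0.13, and Hmgb1, whose product binds CXCL12, had -0.08.

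Of 15 measured genes for receptor phosphorylation, arrestins and trafficking, 0 passed 2-fold. Grk6, a kinase of the receptor tail, was at 34.5 CPM in treated and 23.6 CPM in Ctrl cells (log2 ratio 0.53), higher in 5 of 6 runs. Stam, which takes part in endosomal sorting, had 0.45 and Grk2 had 0.21. Grk3, a rarer relative at 1.97 CPM in treated and 3.89 CPM in Ctrl cells, had -0.72, with 0.71 in block 1 and -1.92 in block 2, lower in 3 and higher in 3 runs, and -0.37 without the highest cell of each treatment. Sh3kbp1 had -0.20 and Rab5a, a GTPase of early endosomes, -0.12.

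Beside 0.888% and 1.16% of all measured genes, 0 of 29 measured genes of G protein and migration signalling were 2-fold lower and 1 was 2-fold higher. This was Rgs16, a regulator that shortens G protein signalling, at 45.2 CPM in treated and 18.7 CPM in Ctrl cells (log2 ratio 1.23), with 1.72 in block 1 and -0.15 in block 2. Rgs3, of the same family, was at 44.3 CPM in treated and 79.2 CPM in Ctrl cells (-0.82) and was lower in 5 of 6 runs. Gna13 and Jak2 were higher in 6 of 6 runs, with log2 ratios of 0.44 and 0.43. Prex1 and Pxn had -0.41 and -0.15.

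Of 15 measured regulators of these genes, 0 passed 2-fold. Egln3, a hydroxylase that marks the hypoxia-inducible factors, which can activate Cxcr4 and Cxcl12, was at 100.4 CPM in treated and 62.2 CPM in Ctrl cells (log2 ratio 0.68), with 0.11 in block 1 and 1.45 in block 2. Foxc2, a forkhead factor known to activate Cxcr4 in endothelial cells, was at 16.2 CPM in treated and 22.96 CPM in Ctrl cells (-0.48), with -0.80 in block 1 and 0.18 in block 2. Yy1 and Egln1 had 0.28 and 0.20, and Epas1 and Erg -0.25 and -0.20. Rbpj, through which Notch acts and named here after its value was seen, had 0.09.

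Few other chemokine genes were measured: 5 of 23 ligands and 3 of 21 receptors. Of the ligands, 0 were 2-fold lower and 2 were 2-fold higher, beside 0.888% and 1.16% of all measured genes. Cxcl1, a neutrophil attractant, was at 5.23 CPM in treated and 1.89 CPM in Ctrl cells (log2 ratio 1.11). Ppbp, a platelet chemokine named here after its value was seen, was at 130.8 CPM in treated and 9.79 CPM in Ctrl cells, higher in 3 runs and lower in 3. Of its treated reads, 65.1% came from 1 cell of cluster 7. Without the highest cell of each treatment Ppbp was at 46.002 CPM in treated and 1.60 CPM in Ctrl cells, and over clusters 1 to 3 at 0.453 CPM in treated and 0.128 CPM in Ctrl cells. The platelet chemokine Pf4 had 438 CPM in treated and 227.2 CPM in Ctrl cells (0.94), but 1.84 and 1.68 CPM over clusters 1 to 3. The summed megakaryocyte list, which holds Pf4 and Ppbp, was at 817 CPM in treated and 347 CPM in Ctrl cells, with 6 of its 6 genes higher, and its part in these values was not tested. The remaining ligands Ccl25 and Cx3cl1 had 0.22 and -0.26. Of the receptors, 0 passed 2-fold in either direction: Ackr1 had 0.66, Ackr2 0.52 and Ccrl2 0.26. The median log2 ratio of the receptor phosphorylation, migration and regulator lists was 0.05, 0.03 and -0.03, beside 0.01 for all measured genes, and that of the ligand and enzyme list was -0.16. The medians of the other chemokine ligands (5 genes) and receptors (3 genes) were 0.94 and 0.52.

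**Figure D5:**
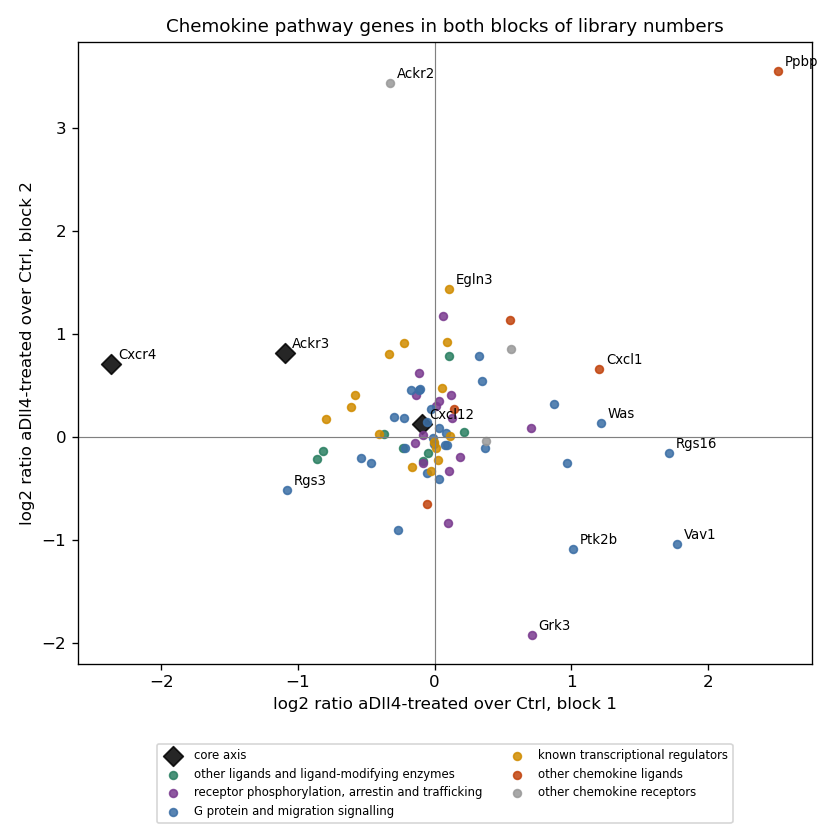
Log2 ratio of aDll4-treated over Ctrl summed CPM in block 1 (horizontal axis) and block 2 (vertical axis) for the measured genes of the 7 chemokine lists, coloured by list, with the 3 axis genes as black diamonds. Cxcr4 (-2.37 and 0.72) and Ackr3 (-1.09 and 0.82) sit at the upper left, Cxcl12 near 0 on both axes, and most other genes close to 0 in block 1.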

How the data were processed

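Reads per gene were counted in 483 single cells, 244 treated (178 in block 1 and 66 in block 2) and 239 Ctrl (176 and 63). The deposited table holds whole-number counts per gene with unequal totals, so not normalised; GSNAP, HTSeq 0.6.0 and the mm10 build are named in the submitters' processing notes. The sources used here name no annotation release, counting mode or strand setting, and Smart-seq2 does not mark strand. Gene symbols came from GENCODE M21. Every column belonged to a labelled cell, identical columns were not found, no cell was left out and doublets were not called. Total counts per cell ranged from 123097 to 2451790 in treated and from 136928 to 2870618 in Ctrl cells. Median totals were 869802 and 900286.

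Counts were summed over cells and scaled to CPM, with exact Poisson intervals. Clopper-Pearson intervals stand beside shares of cells, and Newcombe intervals beside their differences, all at 95%. Intervals cover counting error only, since amplified reads are not independent molecules, and do not cover the spread between embryos. Differences are log2 ratios with 1 CPM added, which understates those of low genes, and called means past 2-fold. A gene was measured with a read in at least 5% of cells. The floor for a count of 0 is 3 counts. Sex was called at 10 reads of Xist or of the Y-linked genes. The scripts were tested on simulated data, and used Python 3.11.15, pandas 2.3.3, NumPy 2.4.6 and SciPy 1.17.1.

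The genes, the 7 chemokine lists and the marker lists were chosen with earlier results of these data known. From each chemokine list, up to 3 genes with the highest and 3 with the lowest difference in mean log2(CPM + 1) are named. The 6 genes most like each member had a read in at least 10% of cells. Alternatives were other scalings, pseudocounts of 0.1 and 10 CPM, detection limits of 10 reads or 10 CPM, thinning to 120000 reads a cell, and omission of cells, runs, blocks, sexes or clusters.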

Additional observations from a re-analysis of the deposited data

Results flagged for a closer look

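Cxcr4 was lower in treated than in Ctrl cells in every run of library numbers of block 1 (log2 ratio -2.37 over the block) and higher in every run of block 2 (0.72 over the block). The block 2 value rests on 1 treated cell with 50% of the treated reads, and without that cell it was 0.12. In run 6 the share of cells with a read was 8.33% in treated and 11.5% in Ctrl cells, against the direction of the level. The difference between the blocks was not tested, since each treatment is 1 sample. Treated cells with a sex call were all Y-positive in block 1 and all Xist-positive in block 2, while Ctrl cells were of both kinds in each block, and the part of sex in the difference was not tested. Within Y-positive cells of block 1 the log2 ratio was -2.18, and within Xist-positive cells of block 2 it was 0.55.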

How the results depend on the processing

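Of the 25 alternatives to each log2 ratio, treated over Ctrl, 21 were below 0 for Cxcr4, 21 for Ackr3 and 11 for Cxcl12. The Cxcr4 ratio of -1.78 became -2.26 with the mean of cells' own CPM, -2.24 and -0.63 with pseudocounts of 0.1 and 10 CPM, -2.12 without the 5 highest cells of each treatment, -2.22 after thinning, -2.37 in block 1 and -2.18 in its Y-positive cells. It turned round to 0.72 in block 2 and to 0.55 in the Xist-positive cells of that block, but 1 treated cell holds 50% of the treated reads there. Chosen after seeing the data, each block was also taken without its highest treated cell and without the highest cell of each treatment. This gave -2.63 and -2.53 in block 1 and 0.12 and 0.43 in block 2 for Cxcr4, -1.34 and -1.25 in block 1 and 0.68 and 0.89 in block 2 for Ackr3, and -0.45 and 0.22 in block 1 and -0.32 and 0.32 in block 2 for Cxcl12. The Ackr3 ratio of -0.50 became -0.73 with cells' own CPM, -0.40 with a pseudocount of 10 CPM, -0.55 and -0.88 without the highest and the 5 highest cells of each treatment, -0.74 after thinning and -0.95 in clusters 1 to 3. It was -1.09 in block 1, 0.82 in block 2, -0.19 in Y-positive cells of block 1 and 0.43 in Xist-positive cells of block 2. The Cxcl12 ratio of 0.01 became -0.12 with cells' own CPM, 0.92 without the 5 highest cells, -0.0901 in block 1, 0.13 in block 2, 0.22 in clusters 1 to 3, 0.58 in Y-positive cells of block 1, -0.76 in Xist-positive cells of block 2, -0.0748 at the same cluster shares and -0.17 after thinning. Leaving out each run in turn gave -2.31 to -1.22 for Cxcr4, -0.94 to -0.22 for Ackr3 and -0.25 to 0.44 for Cxcl12. The Cxcr4 ratio was closest to 0 without run 4.

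The difference in share of cells was 2.53 points for Cxcr4 in block 2 and 2.75 points in its Xist-positive cells, against -11.1 points over all cells. For Ackr3 these were 9.60 and 4.79 points, and for Cxcl12 21.7 points in the Xist-positive cells. Without each run in turn, the differences were -14.6 to -6.39 points for Cxcr4, -6.15 to -2.11 for Ackr3 and 2.84 to 7.03 for Cxcl12. The share held by the 10 highest cells was 62.1%, 51.1% and 34.97% for Cxcl12, Cxcr4 and Ackr3 in raw reads, 67.1%, 57.5% and 41.1% in block 1 and 87.9%, 93.03% and 79.96% in block 2, which has fewer cells. The co-detection shares among cells with the first gene stayed within their counting intervals under every alternative run. The shares in cells without that gene were not part of this check. They were lower at 10 reads, as given above, so the gap was wider there. Of the other chemokine genes, 0 were 2-fold lower and 3 higher as reported. The numbers were 1 and 7 without a filter, 1 lower with a pseudocount of 0.1 CPM, 1 higher with 10 CPM, 1 higher among genes read in 20% of cells, 1 and 6 in block 1 and 3 and 5 in block 2. Of all measured genes, 1.55% and 1.64% were 2-fold lower and higher in block 1, and 5.42% and 5.87% in block 2. No paired analysis was possible because replicate numbers only name cells and each treatment is 1 sample. Few cells carry each transcript, and this limits every value within a cluster or run.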
